A study of Homo sapiens with 18 samples.

Results

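The genes described here are RFX7 and 9 genes reported to be its targets, 10 of the 58336 gene IDs counted in the series. RFX7 was selected on its level, nearly silent in the wild-type libraries and expressed in the LATS1/2 knockout libraries. The 9 targets (PDCD4, PIK3IP1, TOB1, PNRC1, ARRDC3, TP53INP1, TSPYL2, MYLIP and ABAT) were chosen as reported targets, and the question asked of them is whether their levels follow that of RFX7. All 10 were among the 19393 genes with enough reads to test.

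The cells were HEK293A, an adherent human embryonic kidney line. One genotype had both LATS1 and LATS2 knocked out, the kinases of the Hippo pathway that restrain the coactivators YAP and TAZ, and the other was wild type. Cells of each genotype spent 4 h in 250 uM ZnCl2, in 50 uM CdCl2 or in water, which made 6 groups of 3 libraries, 18 in all. The labels do not say whether the knockout cells were 1 clone, and the knockout and the line that carries it cannot be told apart. The replicates are called biological, without saying whether they were separate cultures, so the tests speak only of the spread among these libraries.

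RFX7 is a winged-helix transcription factor of the regulatory factor X family, whose members bind X-box elements in promoters. In human cells it has been described as acting downstream of p53 and as activating genes that restrain growth and PI3K signalling. HEK293 lines carry the adenovirus E1 genes, whose products bind p53 and the retinoblastoma protein.

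The promoters of 5 genes are printed because they hold, or do not hold, the sequence that RFX proteins bind. The search used a single RFX site, GTTGCNA on either strand, and paired sites, GTTGC followed after 3 or 4 bases by GCAAC. Sequences are RefSeq windows of 300 bases on GRCh38.p14, 250 before a start and 50 after it, read 5′ to 3′ on the strand of the gene, and capitals mark a single site or a pair.
ABAT, chr16:8712587-8712886, plus strand: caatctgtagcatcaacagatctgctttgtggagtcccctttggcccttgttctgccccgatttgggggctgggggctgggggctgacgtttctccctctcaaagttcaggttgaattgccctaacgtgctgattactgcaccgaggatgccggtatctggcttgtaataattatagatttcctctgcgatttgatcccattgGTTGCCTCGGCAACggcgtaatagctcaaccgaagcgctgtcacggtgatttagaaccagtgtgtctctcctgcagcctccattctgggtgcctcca
TOB1, chr17:50867929-50868228, minus strand: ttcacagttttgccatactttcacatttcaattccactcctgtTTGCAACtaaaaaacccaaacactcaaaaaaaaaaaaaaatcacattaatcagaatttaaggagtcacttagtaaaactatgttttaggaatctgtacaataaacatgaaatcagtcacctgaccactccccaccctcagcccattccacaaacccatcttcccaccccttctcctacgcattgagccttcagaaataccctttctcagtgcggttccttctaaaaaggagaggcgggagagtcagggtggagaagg
MXD4, chr4:2262060-2262359, minus strand: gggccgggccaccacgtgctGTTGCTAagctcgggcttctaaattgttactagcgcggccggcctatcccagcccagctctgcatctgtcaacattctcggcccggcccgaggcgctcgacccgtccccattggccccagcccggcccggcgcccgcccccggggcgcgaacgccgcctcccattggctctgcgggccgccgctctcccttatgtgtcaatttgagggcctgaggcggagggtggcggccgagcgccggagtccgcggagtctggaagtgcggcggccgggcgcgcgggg
PDCD4, chr10:110871678-110871977, plus strand: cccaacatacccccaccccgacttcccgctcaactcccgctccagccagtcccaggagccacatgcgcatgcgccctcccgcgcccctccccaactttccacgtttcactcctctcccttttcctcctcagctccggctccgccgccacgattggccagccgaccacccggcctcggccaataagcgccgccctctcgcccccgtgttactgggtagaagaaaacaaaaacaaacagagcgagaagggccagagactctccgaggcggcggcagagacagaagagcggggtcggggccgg
PIK3IP1, chr22:31292485-31292784, minus strand: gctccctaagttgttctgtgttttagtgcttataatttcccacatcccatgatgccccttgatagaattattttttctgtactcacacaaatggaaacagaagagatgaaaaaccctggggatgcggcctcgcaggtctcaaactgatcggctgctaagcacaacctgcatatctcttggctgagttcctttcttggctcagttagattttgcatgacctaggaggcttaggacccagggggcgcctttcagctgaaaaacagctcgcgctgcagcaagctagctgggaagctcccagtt
RefSeq gave 14 windows for 8 of the 9 targets. A single site was found in 1 of them, the TOB1 window printed above, and a pair in 2 overlapping windows of ABAT, 1 of which is printed. Over all 35116 windows, 3233 (9.207%) held a single site and 131 (0.373%) a pair. The PDCD4 and PIK3IP1 windows, whose genes were higher in the knockout under each treatment (described below), held neither. MXD4, which is not one of the 9 targets but is listed below among further genes held to be RFX7 targets, held a single site. Of 5 windows of those further genes 2 held one, that of MXD4 and that of IP6K2. The log2 fold change of IP6K2 in the knockout against wild type was 0.23 in water and 0.06 in zinc, where it did not pass the test. Of 12 windows of relatives of the targets, also listed below, 3 held a single site. A match is a string of letters and not a measured binding site, and a window without one says nothing about RFX7.

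RFX7 (ENSG00000181827, GRCh38 chromosome 15, 56087280 to 56243266, minus strand) was read 755 to 1444 times in each of the 9 knockout libraries and 0 to 7 times in each of the 9 wild-type libraries. Levels are given in CPM, the reads of a gene scaled to its library's total after TMM normalization. RFX7 had 28.6, 29.9 and 33.8 CPM in zinc-treated knockout cells, against 0.136, 0.102 and 0.228 CPM in zinc-treated wild type. It had 26.7, 29.7 and 31.2 CPM in cadmium-treated knockout cells, against 0.0940, 0.205 and 0.155 CPM in cadmium-treated wild type. In water it had 36.6, 36.2 and 36.3 CPM in knockout cells, against 0.0768, 0.0990 and 0 CPM in wild type. No knockout library came near any wild-type library. The ratio of knockout to wild type over the summed reads of a group was 197 in zinc (95% counting interval 117 to 361), 193 in cadmium (115 to 354) and 666 in water (285 to 2052). These intervals cover counting error only, and the ratios rest on 14, 14 and 5 wild-type reads. This contrast chose the gene, so its values are a description without a test.

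**Figure D1:**
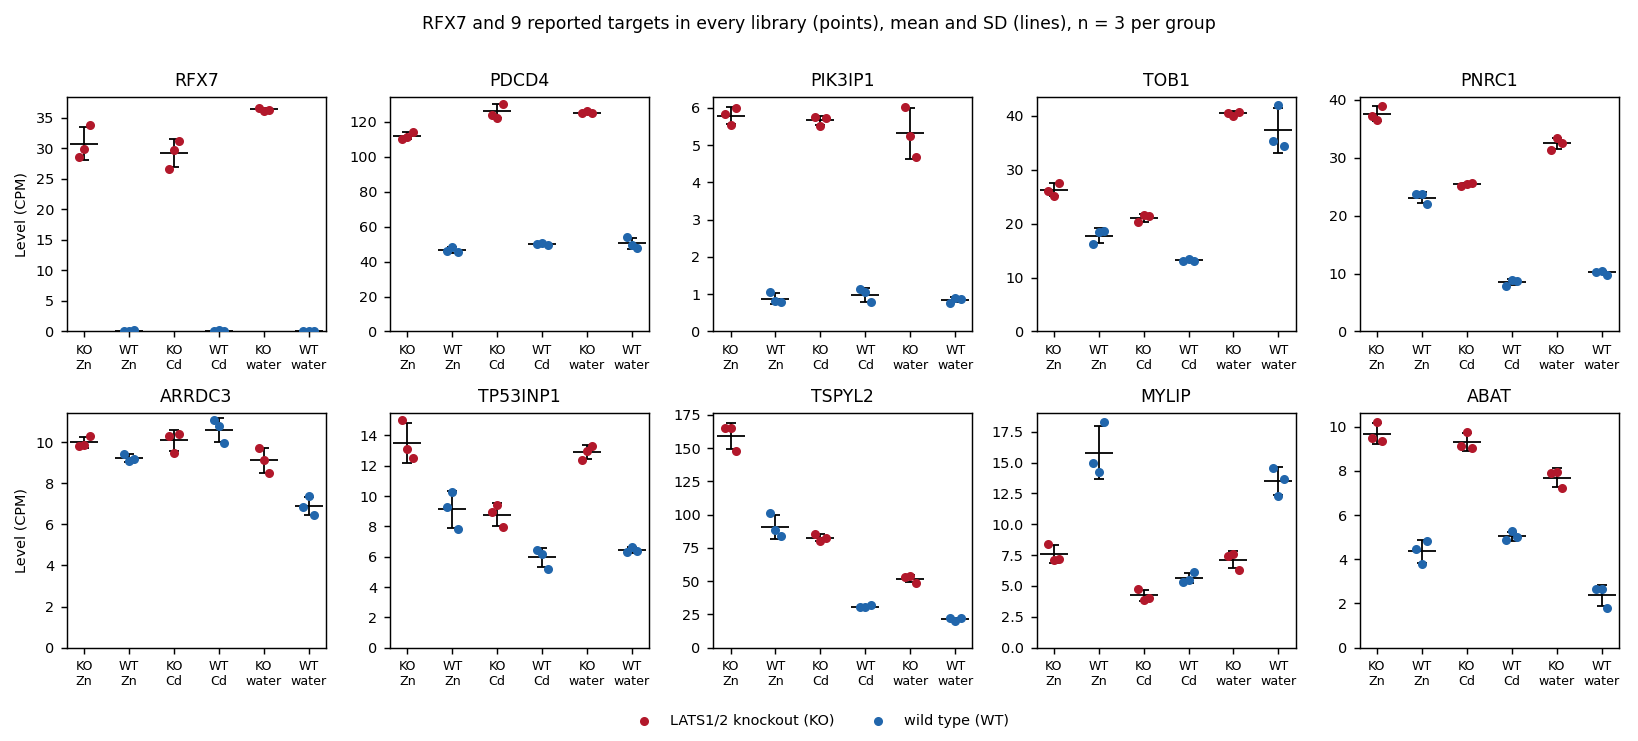
Level of RFX7 and of each reported target in CPM (vertical axes, linear, from 0) in the 18 libraries, by genotype and treatment (horizontal axes). Points are libraries and lines are the mean and SD of 3 libraries. RFX7 lay between 26.7 and 36.6 CPM in the knockout and at or below 0.228 CPM in wild type, while PDCD4 and PIK3IP1 separated the genotypes under each treatment and ARRDC3 overlapped between genotypes in cadmium.

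The metals were not used to choose RFX7, so its response within the knockout was tested. RFX7 averaged 30.8 ± 2.68 CPM in zinc and 29.2 ± 2.31 CPM in cadmium, against 36.4 ± 0.242 CPM in water (SD, n = 3 each). All 3 libraries of either metal lay below all 3 in water. The log2 fold change was -0.24 ± 0.06 in zinc (edgeR quasi-likelihood test, adjusted by Benjamini-Hochberg over all tested genes, adjusted p = 9.35e-04) and -0.32 ± 0.06 in cadmium (edgeR adjusted p = 3.70e-05), where the value after ± is a standard error approximated from the test. In wild type RFX7 had 14 reads over the 3 zinc libraries and 14 over the cadmium libraries, against 5 over the water libraries, too few for a statement on the metals.

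The silence in wild type extended to the genes on either side of RFX7 on chromosome 15. The 3 nearest protein-coding genes on each side are PYGO1, PRTG and NEDD4 at lower coordinates and TEX9, MNS1 and ZNF280D at higher ones. TEX9 starts 743 bases from RFX7 on the opposite strand. NEDD4, a ubiquitin ligase that binds arrestin-domain proteins such as ARRDC3, had 22.1 to 32.7 CPM in the knockout libraries and 0 to 0.188 CPM in wild type. TEX9 had 3.59 to 5.60 CPM in the knockout libraries and 0 to 0.0678 CPM in wild type, and MNS1, known for its part in sperm flagella, had 5.31 to 6.52 CPM in the knockout libraries and 0 to 0.0284 CPM in wild type. PRTG, an immunoglobulin-family cell surface protein, stood between, with 23.6 to 33.4 CPM in the knockout libraries and 0.466 to 1.43 CPM in wild type.

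The outer genes were expressed in both genotypes. PYGO1, a coactivator of Wnt signalling, had 28.7 to 68.8 CPM in the knockout libraries and 27.9 to 57.1 CPM in wild type. ZNF280D, a zinc finger gene, had 1.73 to 3.07 CPM in the knockout libraries and 2.91 to 5.41 CPM in wild type. From NEDD4 up to ZNF280D the annotation holds 15 genes, of which 8 had at least 20 reads over the knockout libraries. Those 8 summed to 20070 reads in the 9 knockout libraries, against 77 in the 9 wild-type libraries. RFX7 itself is among the 8, with 9183 of the knockout reads and 33 of the wild-type reads. The 8 were admitted by their knockout reads alone, so the contrast of the sums is partly set by that choice. This stretch was chosen after its values were seen and is described without a test. RFX7, its neighbours, the LATS1/2 genotype and the line thus differ together between the libraries, and their parts in any difference of a target between genotypes cannot be told apart.

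**Figure D2:**
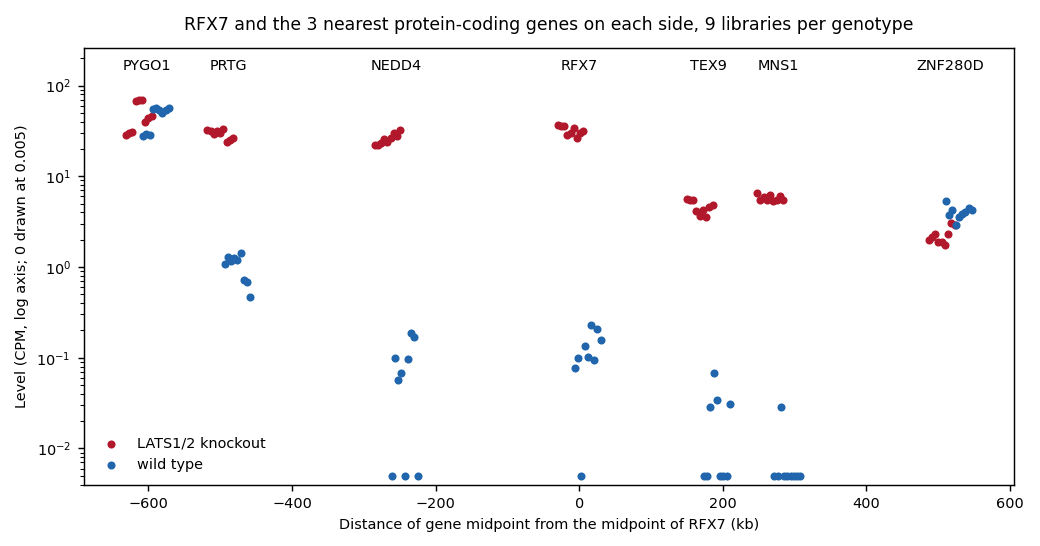
Level of RFX7 and of the 3 nearest protein-coding genes on each side in CPM (vertical axis, log scale, with a level of 0 drawn at 0.005) against the distance of a gene's midpoint from that of RFX7 in kb (horizontal axis), with libraries spread sideways to separate them. RFX7, NEDD4, TEX9 and MNS1 lay at or below 0.228 CPM in the 9 wild-type libraries, while PYGO1 and ZNF280D were read in both genotypes.

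Few genes were as silent in wild type and as highly expressed in the knockout as RFX7. With at most 7 reads in every wild-type library and at least 26.7 CPM in every knockout library, the values of RFX7 itself, 4 genes qualified, which were RFX7, OLR1, ZNF532 and MYL9, and none (0) qualified in the reverse direction. The number depends on these cutoffs, which come from the values that chose RFX7. NEDD4, with at most 6 reads in any wild-type library, missed only the level cutoff, at 22.1 CPM in its lowest knockout library. By Pearson correlation of log2 CPM with RFX7 over the 6 group means, the 5 genes most like it among 11324 with a mean of at least 5 CPM were CDH4 (r = 0.9994), SPINT1 (0.9993), CA2 (0.9991), XAGE2 (0.999) and FHL1 (0.9985). All 6 points share their libraries with RFX7, and the measure is set mainly by the genotypes, so these values are a description. Of the targets, PDCD4 had an r of 0.99 (rank 149 of 11324), ABAT 0.90 (rank 1101), PNRC1 0.83 (rank 1583) and TP53INP1 0.81 (rank 1695). TSPYL2 had 0.62 (rank 2623), ARRDC3 0.42 (rank 3518), TOB1 0.35 (rank 3802) and MYLIP -0.61 (rank 8185). PIK3IP1 was not ranked, since its mean over all libraries lay below 5 CPM, although it averaged 5.31 to 5.78 CPM in the knockout groups.

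Across genes, levels were compared per kilobase of exon. In knockout cells in water PDCD4 had the highest level of the 10 at 27.6 ± 0.181 CPM per kb, followed by TOB1 at 16.1 ± 0.173, PNRC1 at 10.8 ± 0.339 and TSPYL2 at 10.5 ± 0.548 CPM per kb (SD, n = 3). RFX7 came next at 3.43 ± 0.0228 CPM per kb, ahead of MYLIP at 2.35 ± 0.227, TP53INP1 at 2.27 ± 0.0806, ARRDC3 at 1.85 ± 0.123, PIK3IP1 at 1.40 ± 0.179 and ABAT at 0.789 ± 0.0428 CPM per kb. PNRC1 and TSPYL2, and MYLIP and TP53INP1, differed by less than these SDs.

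Between genotypes most targets were higher in the knockout, as RFX7 was. Of the 9 targets, 7 were higher and 1 lower in zinc, 7 higher and 1 lower in cadmium, and 7 higher and 1 lower in water (edgeR adjusted p under 0.05). Among all tested genes, 34.0% were higher and 32.7% lower in zinc, 32.6% higher and 34.5% lower in cadmium, and 30.8% higher and 32.1% lower in water. The median log2 fold change of the targets was 0.70 in zinc, 0.88 in cadmium and 1.27 in water, beside 0.00, -0.02 and -0.02 over all tested genes. Under all 3 treatments 6 of the 9 were higher (PDCD4, PIK3IP1, PNRC1, TP53INP1, TSPYL2 and ABAT), against 22.8% of all tested genes, and 1 was lower (MYLIP), against 20.9%. The 3 comparisons use different libraries, but the targets were chosen with results of these data known.

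The largest differences among the targets were those of PIK3IP1 (ENSG00000100100, GRCh38 chromosome 22, 31281593 to 31292534, minus strand), a membrane protein that inhibits PI3K. It had 5.82, 5.54 and 5.99 CPM in zinc-treated knockout cells, against 1.05, 0.819 and 0.781 CPM in zinc-treated wild type. It had 5.74, 5.51 and 5.72 CPM in cadmium-treated knockout cells, against 1.13, 1.06 and 0.777 CPM in cadmium-treated wild type, and 6.03, 5.24 and 4.67 CPM in knockout cells in water, against 0.768, 0.891 and 0.879 CPM in wild type in water. All knockout libraries lay above all wild-type libraries, with log2 fold changes of 2.71 ± 0.15 in zinc, 2.52 ± 0.15 in cadmium and 2.62 ± 0.15 in water (edgeR adjusted p = 1.49e-18, 6.04e-18 and 7.31e-18). Wild-type libraries held only 20 to 36 reads of it. An antisense gene, PIK3IP1-AS1, overlaps PIK3IP1, and the counts ignore strand. Reads on the opposite strand made up 13.8 to 18.3% of its reads in knockout groups and 25 to 32.1% in wild-type groups, and on the strand with most reads the log2 fold changes were 2.99, 2.65 and 2.85.

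PDCD4 (ENSG00000150593, GRCh38 chromosome 10, 110871795 to 110900006, plus strand), which binds the helicase eIF4A and restrains translation, showed a difference of nearly the same size under each treatment. It had 110, 111 and 114 CPM in zinc-treated knockout cells, against 45.9, 48.5 and 45.6 CPM in zinc-treated wild type. It had 124, 122 and 130 CPM in cadmium-treated knockout cells, against 50.0, 50.5 and 49.2 CPM in cadmium-treated wild type, and 125, 126 and 125 CPM in knockout cells in water, against 54.1, 49.3 and 48.0 CPM in wild type in water. The groups did not overlap, and the log2 fold changes were 1.26 ± 0.04 in zinc, 1.33 ± 0.04 in cadmium and 1.32 ± 0.04 in water (edgeR adjusted p = 1.20e-26, 1.12e-27 and 1.74e-27). BBIP1 and PDCD4-AS1 overlap it on the opposite strand, which held 4.97 to 5.45% of its reads in knockout groups and 13.3 to 16.3% in wild-type groups.

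PNRC1 (ENSG00000146278, GRCh38 chromosome 6, 89080751 to 89085160, plus strand), a nuclear receptor coactivator, was higher in the knockout by an amount that varied with treatment. It had 37.2, 36.5 and 39.0 CPM in zinc-treated knockout cells, against 23.7, 23.7 and 22.0 CPM in zinc-treated wild type, and 25.1, 25.4 and 25.6 CPM in cadmium-treated knockout cells, against 7.92, 8.95 and 8.76 CPM in cadmium-treated wild type. In water it had 31.4, 33.4 and 32.5 CPM in knockout cells, against 10.3, 10.5 and 9.84 CPM in wild type. The groups did not overlap under any treatment, and zinc-treated wild type was the highest of the wild-type groups. The log2 fold changes were 0.70 ± 0.05 in zinc, 1.57 ± 0.06 in cadmium and 1.67 ± 0.06 in water (edgeR adjusted p = 2.59e-15, 2.65e-23 and 4.40e-25).

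TSPYL2 (ENSG00000184205, GRCh38 chromosome X, 53082367 to 53088540, plus strand), a member of the nucleosome assembly protein family, had the highest level per length of the 10 genes in zinc, 32.2 ± 2.03 CPM per kb in the knockout and 18.3 ± 1.79 CPM per kb in wild type (SD, n = 3 each). It had 165, 165 and 148 CPM in zinc-treated knockout cells, against 101, 88.1 and 83.6 CPM in zinc-treated wild type, and 85.6, 80.1 and 82.1 CPM in cadmium-treated knockout cells, against 30.2, 30.9 and 31.7 CPM in cadmium-treated wild type. In water it had 52.8, 54.0 and 48.8 CPM in knockout cells, against 22.3, 20.2 and 21.9 CPM in wild type. The genotypes did not overlap within a treatment, but zinc-treated wild-type libraries lay above the knockout libraries in water. The log2 fold changes were 0.81 ± 0.05 in zinc, 1.42 ± 0.06 in cadmium and 1.27 ± 0.06 in water (edgeR adjusted p = 8.17e-18, 2.76e-23 and 2.12e-20).

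ABAT (ENSG00000183044, GRCh38 chromosome 16, 8674565 to 8784575, plus strand), the mitochondrial transaminase that breaks down the neurotransmitter GABA, differed most in water. It had 9.49, 10.2 and 9.33 CPM in zinc-treated knockout cells, against 4.47, 3.79 and 4.82 CPM in zinc-treated wild type, and 9.11, 9.76 and 9.03 CPM in cadmium-treated knockout cells, against 4.85, 5.26 and 5.0 CPM in cadmium-treated wild type. In water it had 7.90, 7.96 and 7.21 CPM in knockout cells, against 2.65, 2.64 and 1.81 CPM in wild type. No groups of different genotype overlapped. The log2 fold changes were 1.15 ± 0.10 in zinc, 0.88 ± 0.10 in cadmium and 1.72 ± 0.12 in water (edgeR adjusted p = 5.45e-13, 2.74e-10 and 5.96e-16). TMEM186 overlaps it on the opposite strand, which held 16.4% of its reads in zinc-treated wild type and 14.9% in cadmium-treated wild type, beside 4.69% in wild type in water.

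TP53INP1 (ENSG00000164938), a p53-induced gene whose product acts in autophagy, had 15.0, 13.1 and 12.5 CPM in zinc-treated knockout cells, against 9.28, 10.3 and 7.84 CPM in zinc-treated wild type. It had 8.94, 9.44 and 7.96 CPM in cadmium-treated knockout cells, against 6.45, 6.19 and 5.22 CPM in cadmium-treated wild type, and 12.4, 13 and 13.3 CPM in knockout cells in water, against 6.29, 6.67 and 6.35 CPM in wild type in water. Within each treatment the genotypes did not overlap. The log2 fold changes were 0.57 ± 0.09 in zinc, 0.56 ± 0.10 in cadmium and 1.0 ± 0.09 in water (edgeR adjusted p = 3.50e-07, 6.07e-06 and 3.17e-12). NDUFAF6 overlaps it on the opposite strand, which held 1.80 to 4.75% of its reads.

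TOB1 and ARRDC3 were higher in the knockout under some treatments and not called under others. TOB1 (ENSG00000141232, GRCh38 chromosome 17, 50862223 to 50867978, minus strand), an antiproliferative protein that recruits the CCR4-NOT deadenylase to mRNAs, had 26.0, 25.2 and 27.6 CPM in zinc-treated knockout cells, against 16.3, 18.5 and 18.7 CPM in zinc-treated wild type. It had 20.3, 21.6 and 21.5 CPM in cadmium-treated knockout cells, against 13.1, 13.5 and 13.1 CPM in cadmium-treated wild type. In water the genotypes overlapped, with 40.6, 40.0 and 40.8 CPM in knockout cells against 35.3, 42.1 and 34.4 CPM in wild type. The log2 fold changes were 0.56 ± 0.07 in zinc and 0.67 ± 0.07 in cadmium (edgeR adjusted p = 1.12e-09 and 8.52e-11), and 0.12 ± 0.06 in water (edgeR adjusted p = 0.0601), the last of which passed under 5 alternatives, among them without wild-type water replicate 2 (0.22, edgeR adjusted p = 7.32e-04).

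ARRDC3 (ENSG00000113369, GRCh38 chromosome 5, 91368724 to 91383359, minus strand), an arrestin-domain adaptor for NEDD4-family ubiquitin ligases, had 9.81, 9.86 and 10.3 CPM in zinc-treated knockout cells, against 9.42, 9.08 and 9.18 CPM in zinc-treated wild type. It had 10.3, 9.48 and 10.4 CPM in cadmium-treated knockout cells, against 11.1, 10.8 and 9.97 CPM in cadmium-treated wild type, and 9.73, 9.12 and 8.52 CPM in knockout cells in water, against 6.83, 7.36 and 6.46 CPM in wild type in water. The genotypes stood well apart in water, narrowly apart in zinc and overlapped in cadmium. The log2 fold change was 0.12 ± 0.08 in zinc, -0.07 ± 0.07 in cadmium and 0.40 ± 0.08 in water (edgeR adjusted p = 0.180, 0.392 and 4.20e-05).

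MYLIP ran the other way. MYLIP (ENSG00000007944, GRCh38 chromosome 6, 16129125 to 16148248, plus strand), the ubiquitin ligase that marks the LDL receptor for degradation, had 8.42, 7.14 and 7.18 CPM in zinc-treated knockout cells, against 15.0, 14.2 and 18.3 CPM in zinc-treated wild type. It had 4.77, 3.89 and 4.06 CPM in cadmium-treated knockout cells, against 5.32, 5.50 and 6.12 CPM in cadmium-treated wild type, and 7.40, 7.62 and 6.33 CPM in knockout cells in water, against 14.6, 12.3 and 13.7 CPM in wild type in water. All knockout libraries lay below the wild-type libraries of the same treatment. The log2 fold changes were -1.06 ± 0.09 in zinc, -0.40 ± 0.12 in cadmium and -0.93 ± 0.09 in water (edgeR adjusted p = 6.82e-13, 0.00449 and 4.89e-11).

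**Figure D3:**
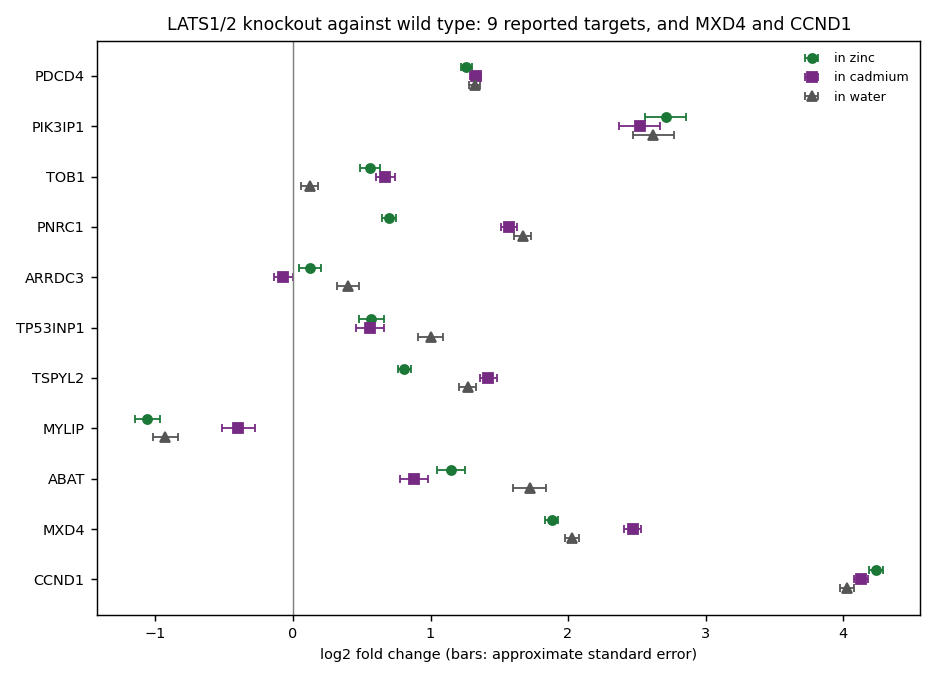
Log2 fold change of LATS1/2 knockout against wild type (horizontal axis) in zinc, cadmium and water for the 9 reported targets and for MXD4 and CCND1, with approximate standard errors as bars. PIK3IP1 lay between 2.52 and 2.71 and PDCD4 between 1.26 and 1.33, TOB1 and ARRDC3 came near 0 under some treatments, and MYLIP was below 0 throughout.

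Within the knockout, where RFX7 was expressed and was lower in both metals, the targets went in both directions, as all tested genes did. Of the 9, 3 were higher in zinc than in water and 2 lower, which is near the 28.2% higher and 27.7% lower among all tested genes. In cadmium 2 were higher, near the 23.2% of all tested genes, and 4 were lower, beside 23.8% of all tested genes. These shares depend on the scaling. With library size alone the median over all genes was -0.12 in cadmium and -0.09 in zinc, the share of called genes that were higher was 28.8% in place of 49.3% in cadmium and 37.2% in place of 50.4% in zinc, and 1 target in place of 2 was higher in cadmium. The median log2 fold change of the targets was 0.14 in zinc and 0.00 in cadmium, beside 0.00 and -0.00 over all genes.

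PDCD4, the target most like RFX7 across groups, fell by 0.17 ± 0.04 on the log2 scale in zinc (edgeR adjusted p = 1.19e-04) and did not change detectably in cadmium (0.00 ± 0.04, edgeR adjusted p = 0.960), where with library size alone it had -0.11 (edgeR adjusted p = 0.00822). PIK3IP1 had log2 fold changes of 0.14 ± 0.10 in zinc and 0.11 ± 0.11 in cadmium, neither of which passed the test (edgeR adjusted p = 0.269 and 0.440). TOB1 fell in both metals, with -0.62 ± 0.06 in zinc and -0.94 ± 0.06 in cadmium (edgeR adjusted p = 6.72e-12 and 3.32e-16). TSPYL2 rose in both, with 1.62 ± 0.05 and 0.68 ± 0.05 (edgeR adjusted p = 2.15e-26 and 6.64e-14), and so did ABAT, with 0.34 ± 0.09 and 0.28 ± 0.09 (edgeR adjusted p = 0.00129 and 0.0101), a rise that in cadmium did not pass without knockout water replicate 3 (0.22, edgeR adjusted p = 0.0756).

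PNRC1 rose in zinc (0.21 ± 0.05, edgeR adjusted p = 2.31e-04) and fell in cadmium (-0.36 ± 0.05, edgeR adjusted p = 1.57e-07). TP53INP1 and MYLIP fell in cadmium, with -0.56 ± 0.09 and -0.72 ± 0.12 (edgeR adjusted p = 1.21e-06 and 2.28e-06), and had 0.07 ± 0.08 and 0.10 ± 0.10 in zinc, which did not pass (edgeR adjusted p = 0.499 and 0.426). ARRDC3 had 0.14 ± 0.08 and 0.15 ± 0.08, which did not pass either (edgeR adjusted p = 0.115 and 0.0961). The zinc and cadmium comparisons share the water libraries, so their values for a gene are not independent.

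In wild type, where RFX7 was nearly silent, 6 of the 9 targets were higher in zinc than in water and 2 lower, among 29.4% of all tested genes higher and 32.0% lower. In cadmium 3 were higher and 3 lower, which is near the 30.0% higher and 31.7% lower among all tested genes. The targets' median log2 fold change was 0.42 in zinc and -0.01 in cadmium, beside -0.01 and -0.01 over all genes. With library size alone the median over all genes was -0.13 in cadmium and -0.07 in zinc, and the share of called genes that were higher was 35.5% in place of 48.6% in cadmium and 40.6% in place of 47.9% in zinc.

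TSPYL2 rose most in wild-type zinc, by 2.08 ± 0.06, followed by PNRC1 at 1.18 ± 0.06 and ABAT at 0.90 ± 0.13 (edgeR adjusted p = 7.99e-28, 1.64e-19 and 1.45e-07). Opposite-strand reads of ABAT, which the counts include, were 0.715 CPM in zinc against 0.109 CPM in water and add to its rise. TP53INP1 rose by 0.50 ± 0.10 and ARRDC3 by 0.42 ± 0.08 (edgeR adjusted p = 3.15e-05 and 2.37e-05). TOB1 fell by 1.06 ± 0.06 (edgeR adjusted p = 1.15e-17). The rise of MYLIP, 0.23 ± 0.09 (edgeR adjusted p = 0.0175), and the fall of PDCD4, -0.11 ± 0.04 (edgeR adjusted p = 0.0224), were small, with overlapping groups. MYLIP did not pass without zinc replicate 3 (0.11, edgeR adjusted p = 0.260) or water replicate 2 (0.17, 0.128), and PDCD4 did not pass without water replicate 1 (-0.06, 0.210), zinc replicate 1 (-0.10, 0.0723) or zinc replicate 3 (-0.09, 0.0837).

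In wild-type cadmium ABAT rose by 1.11 ± 0.13, ARRDC3 by 0.63 ± 0.08 and TSPYL2 by 0.53 ± 0.07 (edgeR adjusted p = 7.65e-10, 9.23e-09 and 6.17e-09). The rise of ABAT again includes opposite-strand reads, at 0.753 CPM in cadmium against 0.109 CPM in water. TOB1, MYLIP and PNRC1 fell, with -1.49 ± 0.07, -1.25 ± 0.10 and -0.26 ± 0.07 (edgeR adjusted p = 1.11e-21, 7.55e-14 and 0.00211). PDCD4 had -0.01 ± 0.04 and TP53INP1 -0.12 ± 0.11, which did not pass (edgeR adjusted p = 0.831 and 0.355), although with library size alone PDCD4 had -0.13 (edgeR adjusted p = 0.00569). PIK3IP1 had 0.05 ± 0.22 in zinc and 0.21 ± 0.22 in cadmium (edgeR adjusted p = 0.865 and 0.418), with standard errors wide enough at 20 to 36 reads per library that changes of the size seen in other targets could go undetected.

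**Figure D4:**
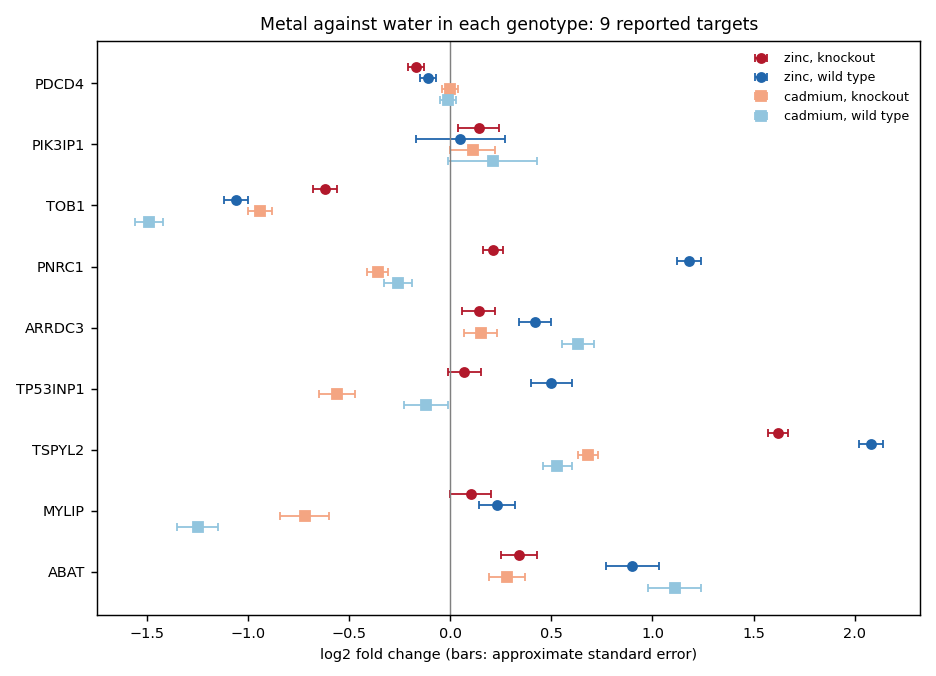
Log2 fold change of zinc and of cadmium against water (horizontal axis) for the 9 reported targets in each genotype, with approximate standard errors as bars. TOB1 was below 0 and TSPYL2 and ABAT above 0 in both genotypes and both metals, and PNRC1 in zinc had 0.21 in the knockout and 1.18 in wild type.

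The difference of the metal response between genotypes was tested as an interaction. For zinc 1 of the 9 targets had a higher response in the knockout than in wild type and 4 a lower one, among 14.1% of all tested genes higher and 10.5% lower. For cadmium 2 were higher and 3 lower, among 14.0% higher and 14.1% lower. The median over the targets was -0.29 for zinc and -0.10 for cadmium, beside 0.02 and 0.01 over all genes.

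For zinc, the interaction was -0.97 ± 0.08 for PNRC1, -0.57 ± 0.16 for ABAT, -0.46 ± 0.08 for TSPYL2 and -0.43 ± 0.13 for TP53INP1 (edgeR adjusted p = 1.83e-12, 0.00642, 2.07e-05 and 0.00990), all genes that rose in wild-type zinc. For TOB1, which fell in both genotypes, it was 0.44 ± 0.09 (edgeR adjusted p = 1.42e-04). ABAT did not pass without wild-type water replicate 3 (-0.38, edgeR adjusted p = 0.0871), nor TP53INP1 without wild-type zinc replicate 2 (-0.34, edgeR adjusted p = 0.0535). Opposite-strand reads of ABAT went from 0.109 CPM in water to 0.715 CPM in zinc in wild type. In the knockout they went from 0.241 to 0.508 CPM, a difference in the direction of its interaction. ARRDC3 had -0.29 ± 0.11 (edgeR adjusted p = 0.0571), which passed on the strand with most reads (-0.29, edgeR adjusted p = 0.0495) and under 4 other alternatives.

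For cadmium, the interaction was -0.83 ± 0.16 for ABAT, -0.48 ± 0.11 for ARRDC3 and -0.44 ± 0.14 for TP53INP1 (edgeR adjusted p = 6.26e-05, 9.69e-04 and 0.0129), and 0.55 ± 0.09 for TOB1 and 0.53 ± 0.16 for MYLIP (edgeR adjusted p = 8.04e-06 and 0.00840). TP53INP1 did not pass without wild-type cadmium replicate 1 (-0.38, edgeR adjusted p = 0.0506), nor MYLIP without knockout cadmium replicate 1 (0.43, edgeR adjusted p = 0.0630). Opposite-strand reads of ABAT went from 0.109 CPM in water to 0.753 CPM in cadmium in wild type. In the knockout they went from 0.241 to 0.447 CPM, a difference in the direction of its interaction. PDCD4 had interactions of -0.06 ± 0.05 for zinc and 0.01 ± 0.05 for cadmium (edgeR adjusted p = 0.513 and 0.889), and PIK3IP1 had 0.09 ± 0.25 and -0.11 ± 0.24 (edgeR adjusted p = 0.858 and 0.814).

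Of 6 further genes held to be RFX7 targets, listed from general knowledge without a source, 3 were higher and 1 lower in the knockout in zinc, 3 higher and 2 lower in cadmium, and 5 higher in water, where SESN3 had 0.08 ± 0.04 (edgeR adjusted p = 0.0894). The shares over all tested genes were 34.0% higher and 32.7% lower in zinc, 32.6% and 34.5% in cadmium, and 30.8% and 32.1% in water. MXD4, a partner of MAX that opposes MYC, had 62.3, 61.1 and 64.5 CPM in zinc-treated knockout cells, against 19.0, 16.4 and 15.8 CPM in zinc-treated wild type. It had 66.4, 60.7 and 62.2 CPM in cadmium-treated knockout cells, against 11.6, 11.3 and 11.3 CPM in cadmium-treated wild type, and 71.7, 71.2 and 74.9 CPM in knockout cells in water, against 18.3, 17.0 and 18 CPM in wild type in water. The groups were far apart, with log2 fold changes of 1.88 ± 0.05, 2.47 ± 0.06 and 2.03 ± 0.05 (edgeR adjusted p = 5.45e-28, 5.14e-31 and 1.95e-29). CCND1, cyclin D1, had the largest differences of the 6, with log2 fold changes of 4.24 ± 0.05 in zinc, 4.13 ± 0.05 in cadmium and 4.03 ± 0.05 in water (edgeR adjusted p = 1.68e-40, 1.13e-40 and 4.81e-40).

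Of the RFX family and its partners, 8 of 10 were tested and RFX4 and RFX8 had too few reads. In the knockout 4 were higher and 2 lower in zinc, 4 higher and 2 lower in cadmium, and 5 higher and 3 lower in water, beside 34.0% higher and 32.7% lower, 32.6% and 34.5%, and 30.8% and 32.1% of all tested genes. RFX2, RFX3, RFX5 and RFX6 were higher under all 3 treatments, and RFX1 and RFXAP lower. Some of these calls passed narrowly. They were RFX1 in water (-0.18 ± 0.08, edgeR adjusted p = 0.0389), RFX3 in zinc (0.16 ± 0.07, 0.0393) and RFX6 in zinc (0.88 ± 0.39, 0.0447). The groups overlapped for RFX1 in water and RFX6 in zinc, and the alternatives were not examined for these genes. In water ANKRA2, a relative of RFXANK, was higher (0.32 ± 0.07, edgeR adjusted p = 9.55e-05) and RFXANK lower (-0.12 ± 0.05, edgeR adjusted p = 0.0428), and neither passed in zinc or cadmium. RFX5, which with RFXAP and RFXANK activates MHC class II genes, had log2 fold changes of 0.77 ± 0.05 in zinc, 0.68 ± 0.04 in cadmium and 0.46 ± 0.04 in water (edgeR adjusted p = 6.96e-18, 1.91e-16 and 1.77e-11). RFXAP had -0.66 ± 0.06, -0.68 ± 0.05 and -0.69 ± 0.05 (edgeR adjusted p = 1.37e-12, 3.11e-15 and 1.78e-14). RFX2 had 1.0 ± 0.10 in zinc (edgeR adjusted p = 8.01e-12), RFX1 had -0.34 ± 0.07 in zinc (edgeR adjusted p = 2.73e-05), and RFX6, with log2 fold changes of 0.88 to 1.46, stayed at or below 0.655 CPM in every library. Each of these differences was small beside that of RFX7.

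Of 10 relatives of the targets 9 were tested, with 4 higher and 3 lower in the knockout in zinc, 5 higher and 4 lower in cadmium, and 5 higher and 2 lower in water. Among all tested genes 34.0% were higher and 32.7% lower in zinc, 32.6% and 34.5% in cadmium, and 30.8% and 32.1% in water. TXNIP, an arrestin relative of ARRDC3 that binds thioredoxin, had log2 fold changes of 1.41 ± 0.11 in zinc, 1.02 ± 0.11 in cadmium and 0.34 ± 0.08 in water (edgeR adjusted p = 1.05e-13, 3.00e-10 and 1.58e-04). TSPYL1 and TSPYL4, relatives of TSPYL2, went in opposite directions, with 0.97 ± 0.05 and -0.85 ± 0.05 in zinc (edgeR adjusted p = 3.71e-20 and 1.49e-18).

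Of 25 p53 targets, 13 were higher and 10 lower in the knockout in zinc, 11 higher and 8 lower in cadmium, and 14 higher and 5 lower in water, with medians of 0.20, 0.10 and 0.15. The background over all tested genes was again 34.0% higher and 32.7% lower, 32.6% and 34.5%, and 30.8% and 32.1%. GDF15, a secreted stress cytokine, was lower, with -1.82 ± 0.23, -2.16 ± 0.13 and -1.85 ± 0.30 (edgeR adjusted p = 8.35e-09, 2.35e-17 and 1.13e-06). RPS27L, a ribosomal protein gene induced by p53, was higher by 1.0 ± 0.05 in cadmium (edgeR adjusted p = 9.23e-21). Against water, 7 of the 25 were higher and 17 lower in zinc in the knockout, among 28.2% of all tested genes higher and 27.7% lower, and 6 were higher and 17 lower in cadmium, among 23.2% and 23.8%. In wild type 7 were higher and 16 lower in zinc, among 29.4% and 32.0%, and 9 were higher and 15 lower in cadmium, among 30.0% and 31.7%.

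LATS1 gives only a weak check of the labels. It had 44.0 to 54.5 CPM in the knockout libraries and 77.3 to 97.3 CPM in wild type, with no overlap. Its log2 fold change in water was -0.81 ± 0.04 (edgeR adjusted p = 5.62e-20). Among all tested genes 32.7% were lower in the knockout in zinc, 34.5% in cadmium and 32.1% in water, so such a fall is not particular to an edited gene. LATS2 was lower in the knockout in the metals and slightly higher in water. It had 36.0 to 40.4 CPM in zinc-treated knockout cells, against 44.3 to 50.2 CPM in zinc-treated wild type, 23.8 to 25.7 CPM in cadmium-treated knockout cells, against 39.0 to 44.7 CPM in cadmium-treated wild type, and 18.2 to 18.9 CPM in knockout cells in water, against 16.2 to 16.5 CPM in wild type in water. These were log2 fold changes of -0.32 ± 0.05, -0.74 ± 0.05 and 0.18 ± 0.06 (edgeR adjusted p = 6.23e-07, 5.67e-15 and 0.0130). Transcripts of an edited gene can persist.

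The 6 genes known from HEK293 cells did not all go the same way. The neurofilament gene NEFL had 60.0 to 106 CPM in the knockout libraries and 20.1 to 42.1 CPM in wild type. SOX2, a transcription factor of neural progenitors, was lower in the knockout, with 3.04 to 4.17 CPM in zinc-treated knockout cells, against 12.7 to 13.4 CPM in zinc-treated wild type, 1.41 to 1.65 CPM in cadmium-treated knockout cells, against 3.88 to 4.50 CPM in cadmium-treated wild type, and 4.60 to 4.95 CPM in knockout cells in water, against 23.9 to 26.8 CPM in wild type in water. Its log2 fold changes were -1.85 ± 0.09, -1.47 ± 0.14 and -2.40 ± 0.08 (edgeR adjusted p = 5.42e-20, 5.82e-12 and 1.40e-25), and in cadmium against water it had -1.69 ± 0.13 in the knockout and -2.61 ± 0.08 in wild type (edgeR adjusted p = 1.42e-13 and 3.36e-26). INA, which encodes the neuronal filament protein internexin, had 326, 343 and 355 reads over the 3 knockout libraries in zinc, cadmium and water, against 2, 4 and 1 reads over the wild-type libraries. NEFM, another neurofilament gene, had 0.328 to 0.705 CPM in the knockout libraries and 0 to 0.157 CPM in wild type, and LHX1, a transcription factor of the developing kidney, had 5.68 to 11.6 CPM in the knockout libraries and 4.13 to 5.54 CPM in wild type. PAX2 had at most 0.268 CPM in any library. The 6, dominated by NEFL, summed to 77.1 to 120 CPM in the knockout libraries and 32.2 to 70.4 CPM in wild type. The 4 fibroblast markers summed to 3.03 to 4.39 CPM in the knockout libraries and 0.678 to 1.09 CPM in wild type. In the knockout most of this was PDGFRB, with 2.20 to 3.51 CPM in the knockout libraries and 0.0339 to 0.186 CPM in wild type. In wild type most of it was LUM, with 0.787 to 1.24 CPM in the knockout libraries and 0.470 to 0.808 CPM in wild type. COL1A2, with too few reads to test, went the other way, with 0 to 0.0705 CPM in the knockout libraries and 0.0683 to 0.340 CPM in wild type, and DCN was at or near 0. The 4 blood markers summed to at most 0.34 CPM and the 4 keratinocyte markers to at most 0.276 CPM in any library, with HBB and KRT1 at 0 throughout. The part of these marker differences in the differences of the targets was not tested.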

How the data were processed

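The authors deposited read counts per gene, in 1 table for the series and 1 file for each library. STAR and the builds hg38 and GRCh38.p13 are named, per the submitters' processing notes. The counter and the annotation release were not given in the sources used here. TRIzol RNA went into stranded TruSeq mRNA libraries, per the labels' protocols. The series table equals the first of 3 count columns of each of the 18 library files, which counts both strands, so overlapping genes on opposite strands cannot be told apart. Reads of the opposite strand were 5.24 to 5.94% of the total, and the strand column with most reads was an alternative. Of the 58336 gene IDs, 58216 were found in GENCODE 29 (GRCh38), the source of symbols and positions. Libraries held 25478614 to 37148046 counts, so 5 CPM is over 100 reads in each, and the median biological coefficient of variation was 3.926%.

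Genes passing filterByExpr (minimum count 10) were tested with edgeR's quasi-likelihood test in 1 model with a term for each of the 6 groups and all libraries, with TMM normalization and Benjamini-Hochberg adjustment over all 19393 genes within each of 9 comparisons, at a threshold of 0.05. The test was also run on counts simulated from its fit to these data. In them few genes were changed, and only in zinc-treated knockout, far fewer than were called here. That run therefore does not gauge the scaling in these data. Replicates differed by more than sampling noise (chi-square per degree of freedom 1.55 to 4.59, the highest for zinc-treated wild type replicate 3), so none was counted as a copy. Alternatives were RLE size factors, library size alone, no filter, DESeq2, a fit of only the groups compared, a replicate block, the strand column and leaving out each replicate. Single sites and pairs were searched on both strands of all RefSeq promoter windows. R 4.3.3, edgeR 4.0.16, limma 3.58.1, DESeq2 1.42.0, Python 3.11.15, pandas 2.3.3, numpy 2.4.6 and matplotlib 3.10.9 were used.

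Of the 45 pairs of same-numbered libraries, 15 deviated from their group means together (correlation over 0.1), with correlations from -0.075 to 0.329. All 3 pairs did so for zinc-treated with cadmium-treated wild type (0.156, 0.165 and 0.152), which were not compared. All 3 also did so for cadmium-treated knockout with cadmium-treated wild type (0.329, 0.112 and 0.165). By this check replicate numbers paired the libraries in that comparison, but the values reported for it come from the model without a term for replicate number. The replicate block was fitted only as an alternative, and it changed no call on a target in that comparison. In the other comparisons of 2 groups the numbers were not taken as pairs. No label says what a number marks.

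The members, the gene lists and the tests were chosen with earlier results of these data known. All 10 members are named. Of the lists, genes are named where they passed the test with a log2 fold change of at least 1 in size, with RFX family members at any value, and likewise the 5 genes most like RFX7 and its 3 neighbours on each side. SESN3, IP6K2, TSPYL4 and, of the markers, PAX2, LUM, COL1A2, DCN, HBB and KRT1 were named after their values were seen.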

Additional observations from a re-analysis of the deposited data

Results flagged for a closer look

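The response to a metal differed between the genotypes for some of the 9 targets, tested as an interaction (edgeR quasi-likelihood test, adjusted over all tested genes). For zinc 1 of the 9 had a higher response in the knockout and 4 a lower one. For cadmium 2 had a higher response in the knockout and 3 a lower one. Among all tested genes the difference was called higher for 14.1% and lower for 10.5% in zinc, and higher for 14.0% and lower for 14.1% in cadmium. For zinc the difference, knockout minus wild type on the log2 scale, was 0.44 for TOB1, -0.97 for PNRC1, -0.43 for TP53INP1, -0.46 for TSPYL2 and -0.57 for ABAT. For cadmium it was 0.55 for TOB1, -0.48 for ARRDC3, -0.44 for TP53INP1, 0.53 for MYLIP and -0.83 for ABAT. Without 1 library the call was lost for ABAT in zinc (-0.38 without wild-type water replicate 3), TP53INP1 in zinc (-0.34 without wild-type zinc replicate 2) and in cadmium (-0.38 without wild-type cadmium replicate 1), and MYLIP in cadmium (0.43 without knockout cadmium replicate 1).

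Reads on the strand opposite to a gene, which the comparisons do not use alone, were in some groups more frequent in a metal than in water. Only rises were looked for, with all 3 libraries of the metal above all 3 in water and a minimum level. Falls occurred too and are not listed, such as that of TP53INP1 in the knockout, at 0.244 ± 0.0913 CPM in zinc against 0.506 ± 0.120 CPM in water. For RFX7 in the knockout they reached 2.07 ± 0.337 CPM in zinc and 1.04 ± 0.127 CPM in cadmium, against 0.536 ± 0.115 CPM in water (SD, n = 3 each), while its level on both strands was lower in the metals. The 9 wild-type libraries held 0 such reads of RFX7. For PDCD4 in cadmium they reached 6.88 CPM in the knockout, against 6.22 CPM in water, and 8.09 CPM in wild type, against 6.63 CPM in water. For TSPYL2 in zinc they reached 0.943 CPM in the knockout, against 0.341 CPM in water, and 0.514 CPM in wild type, against 0.201 CPM in water. For ABAT in zinc they reached 0.508 CPM in the knockout, against 0.241 CPM in water, and 0.715 CPM in wild type, against 0.109 CPM in water, and in cadmium 0.753 CPM in wild type. These differences were not tested.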

How the results depend on the processing

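The counts of targets higher and lower in the knockout than in wild type stayed at 7 and 1 under every alternative, except that 8 were higher in water under the 5 in which TOB1 passed. With library size alone, 1 target in place of 2 was higher in cadmium in the knockout, since ABAT did not pass (0.16), and without single replicates that count ran from 1 to 2. In wild-type zinc 1 target in place of 2 was lower with DESeq2 and with only the groups compared, since PDCD4 did not pass (-0.09 and -0.07), and without single replicates it ran from 1 to 2. For the cadmium interaction, targets higher ran from 1 to 2 without single replicates. Signs turned for values near 0 that had not passed the test: in zinc in the knockout TP53INP1 had -0.02 with library size alone, and without single replicates it ran from -0.01 (without zinc replicate 1) to 0.13. PIK3IP1 had -0.01 with library size alone in cadmium in the knockout, and -0.01 with library size alone in zinc in wild type, where it ran without single replicates from -0.09 (without zinc replicate 1) through -0.01 (without water replicate 1) to 0.14, and its interaction for zinc ran from -0.01 (without knockout water replicate 3) to 0.23. PDCD4 in wild-type cadmium had 0.02 with only the groups compared and ran from -0.05 to 0.03 (without water replicate 1), and its interaction for cadmium had -0.02 with only the groups compared and ran from -0.03 (without wild-type water replicate 1) through -0.01 (without knockout cadmium replicate 3) to 0.05. The cause of these turns was not tested. The number of all genes called stayed within 1.5 times its value.

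With the replicate block TOB1 passed in water (0.12, edgeR adjusted p = 0.0428), and no other call on a target changed. Depth limits PIK3IP1 in wild type, at 20 to 36 reads per library, and RFX7 in wild type.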

Other observations

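Some genes of the wider lists responded strongly to the metals. Of the further genes held to be RFX7 targets, KLHL24, which encodes a substrate adaptor of a ubiquitin ligase, had 55.6 ± 1.88 CPM in zinc and 43.9 ± 2.41 CPM in cadmium, against 28.4 ± 0.848 CPM in water, in the knockout, and 89.2 ± 2.57 and 64.9 ± 1.90 CPM, against 22.0 ± 0.441 CPM, in wild type (SD, n = 3 each). Its difference between genotypes thus changed sign, with -0.68 in zinc and -0.57 in cadmium, but 0.37 in water. The interaction was -1.05 ± 0.06 for zinc and -0.94 ± 0.07 for cadmium (edgeR adjusted p = 1.34e-15 and 7.24e-14). JUNB, a subunit of the AP-1 transcription factor, had 39.7 ± 1.75 CPM in zinc and 13.8 ± 1.06 CPM in cadmium, against 14.3 ± 0.991 CPM in water, in the knockout, and 20.1 ± 1.41 and 18.5 ± 1.78 CPM, against 7.43 ± 0.393 CPM, in wild type. Its cadmium interaction was -1.36 ± 0.11 (edgeR adjusted p = 2.54e-12).

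Among relatives of the targets, TXNIP fell in both metals, with -1.09 ± 0.08 in zinc and -1.24 ± 0.08 in cadmium in the knockout and -2.16 ± 0.11 and -1.91 ± 0.10 in wild type (edgeR adjusted p = 2.01e-14, 2.40e-15, 3.09e-20 and 3.62e-19), with an interaction for zinc of 1.07 ± 0.14 (edgeR adjusted p = 1.85e-07). In zinc BTG1, an antiproliferative relative of TOB1, rose by 0.91 ± 0.05 in the knockout and 1.11 ± 0.05 in wild type (edgeR adjusted p = 2.30e-19 and 2.41e-22), and TSPYL1 fell, with -0.85 ± 0.04 in the knockout and -1.48 ± 0.05 in wild type (edgeR adjusted p = 9.26e-20 and 3.42e-26).

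Among p53 targets, the cell cycle inhibitor CDKN1A rose in both metals, to 123 ± 5.72 CPM in zinc and 79.2 ± 2.20 CPM in cadmium, against 33.3 ± 0.631 CPM in water, in the knockout, and to 95.3 ± 6.47 and 73.9 ± 2.86 CPM, against 29.7 ± 2.74 CPM, in wild type (edgeR adjusted p = 1.09e-28, 2.82e-22, 1.36e-26 and 5.72e-23). SESN1, a sestrin, fell in both metals, with -1.45 ± 0.06 and -1.21 ± 0.06 in the knockout and -1.17 ± 0.06 and -1.34 ± 0.06 in wild type, and PHLDA3, an inhibitor of AKT, likewise, with -1.33 ± 0.08 and -1.55 ± 0.08 in the knockout and -1.20 ± 0.09 and -1.37 ± 0.09 in wild type. The highest adjusted p of these 8 values, that of PHLDA3 in wild-type zinc, was 5.44e-15 (edgeR). PLK3 and BTG2 rose in zinc in both genotypes, with 2.00 ± 0.08 and 1.15 ± 0.05 in the knockout and 1.13 ± 0.09 and 1.41 ± 0.05 in wild type, and PLK3 also in cadmium (1.34 ± 0.08 in the knockout and 0.90 ± 0.09 in wild type). In cadmium BTG2 fell in the knockout (-0.45 ± 0.05) and rose in wild type (0.70 ± 0.05), with an interaction of -1.15 ± 0.07 (edgeR adjusted p = 5.65e-15). BBC3 rose in both metals, by 0.81 ± 0.06 in zinc and 0.72 ± 0.06 in cadmium in the knockout and by 1.20 ± 0.06 and 1.62 ± 0.06 in wild type. In zinc POLH rose by 0.65 ± 0.05 in the knockout and 1.08 ± 0.05 in wild type, and TRIAP1 fell, with -0.91 ± 0.05 in the knockout and -1.0 ± 0.05 in wild type. GDF15 rose in cadmium, by 2.87 ± 0.25 in the knockout and 3.19 ± 0.15 in wild type (edgeR adjusted p = 3.18e-12 and 1.31e-20).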
